A study of Mus musculus with 6 samples.

Results

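Histone deacetylase genes encode the zinc-dependent enzymes that remove acetyl groups from the lysines of histones and other proteins. The 10 genes described here were Hdac1 to Hdac9 and Hdac11. They were chosen by gene symbol, with no cut on their values but with earlier results of these data known. They came from 46072 genes in the table of each of 6 RNA immunoprecipitation sequencing (RIP-seq) libraries of mouse left ventricle. The genes lie on chromosomes 4 (Hdac1), 10 (Hdac2), 18 (Hdac3), 1 (Hdac4), 11 (Hdac5), X (Hdac6 and Hdac8), 15 (Hdac7), 12 (Hdac9) and 6 (Hdac11). In RIP-seq the RNAs that an antibody pulls down with its target protein are sequenced. The target here was EZH2, the methyltransferase of Polycomb repressive complex 2, and normal IgG served as the control antibody. Male mice of 10 weeks were in a Sham group infused with saline (the labels call it untreated) or received angiotensin II (AngII) at 1 mg/kg/min from a subcutaneous osmotic minipump for 4 or 24 h, with 2 mice in each group. Every library pooled 2 RIP products, and each of the 3 groups was represented by 1 library with either antibody. The strain was labelled C57BL/6 for 4 libraries, but C57BL/7 and C57BL/8 for the anti-EZH2 libraries of AngII 4 h and AngII 24 h.

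With 1 library for each combination of group and antibody there were no replicates. The differences below are differences between these libraries, described without a test, except for 1 comparison of the antibodies over the groups. Both antibodies were used on the ventricles of a group, and the IgG library holds what IgG and beads recovered, not the total RNA of the tissue.

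The enzymes fall into classes by sequence. Class I members (Hdac1, Hdac2, Hdac3 and Hdac8) are mostly nuclear, and Hdac1, Hdac2 and Hdac3 work in co-repressor complexes. Class IIa members (Hdac4, Hdac5, Hdac7 and Hdac9) have weak activity of their own, bind MEF2 transcription factors, and leave the nucleus when kinases phosphorylate them and 14-3-3 proteins bind. In the heart, class IIa proteins are known as brakes on hypertrophic growth, whereas inhibitors of class I enzymes are known to blunt it. Hdac6 of class IIb is a mainly cytoplasmic enzyme that acts on tubulin, and Hdac11 is the sole class IV member.

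All 10 genes were above 0 in all 6 libraries, but at low levels. Levels are given as FPKM, fragment numbers divided by transcript length and by library depth, with the interval printed beside each value in the deposited tables. The mean FPKM over the libraries was highest for Hdac5 (3.99), followed by Hdac2 (3.45), Hdac3 (2.68), Hdac7 (2.22), Hdac4 (2.20), Hdac11 (1.06), Hdac6 (1.01), Hdac1 (1.01), Hdac8 (0.807) and Hdac9 (0.631). In that order the ranges over the 6 libraries overlapped for 9 of 9 pairs of neighbours, so no neighbours were separated. The mean was at least 1 FPKM for 8 of the 10 members, and for 8637 of all genes. Hdac8 and Hdac9 were under that minimum. Hdac1, Hdac6 and Hdac11 were just over it, and each would be under it without its highest value. Those values were AngII 24 h with IgG, AngII 24 h with anti-EZH2 and Sham with IgG, in that order. The minimum thus favoured calls that rest on these values. The step between low values placed the libraries at about 3816794 (AngII 24 h with IgG) to 7936508 fragments (AngII 4 h with anti-EZH2). If all fragments came from the longest annotated coding transcript, the levels of the 9 members other than Hdac9 rested on about 2 to 172 fragments, and 11 of these 54 values on fewer than 10. The intervals cover the uncertainty of estimating FPKM within 1 library, not the spread between hearts.

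**Figure D1:**
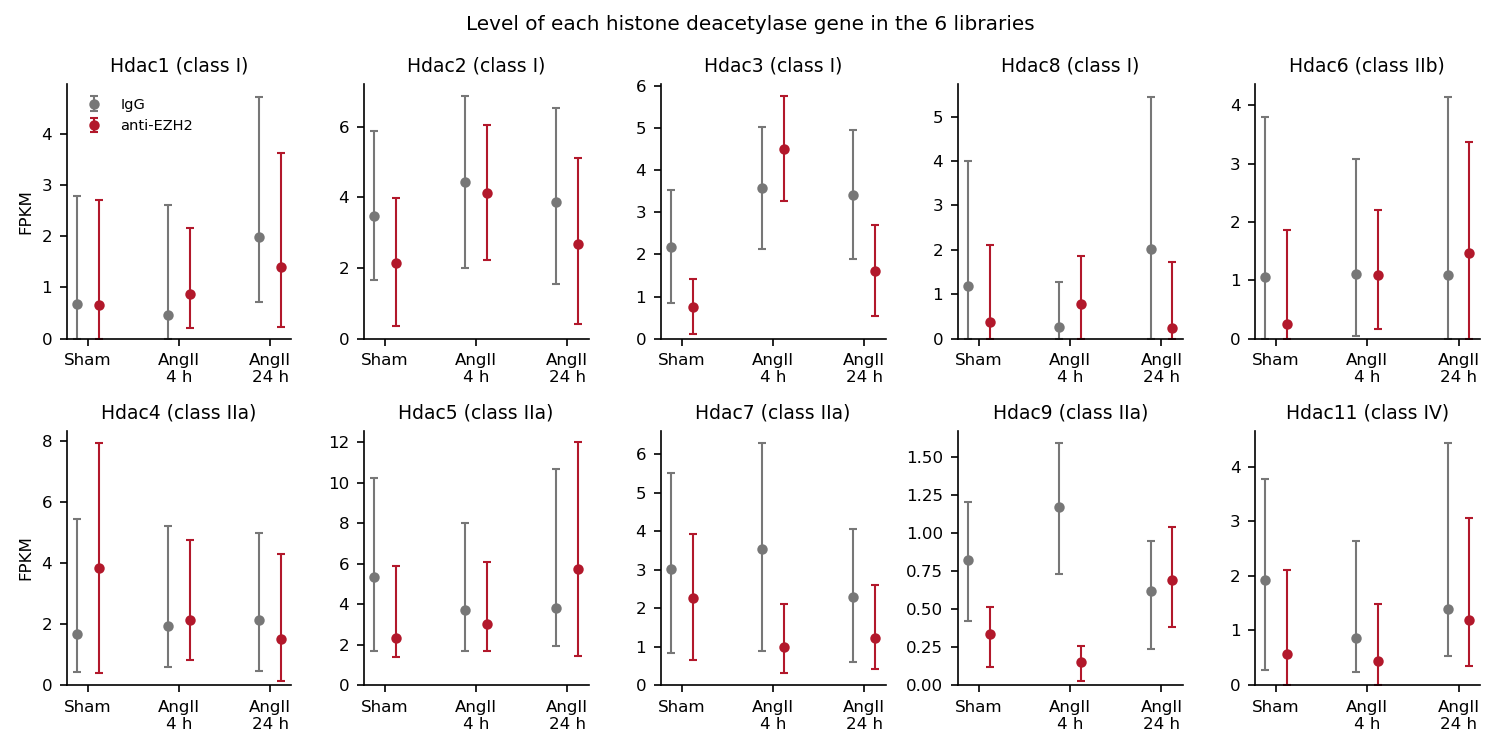
FPKM (vertical axis, from 0, with a scale of its own for each gene) of the 10 histone deacetylase genes with IgG (grey) and with anti-EZH2 (red) in the 3 groups. Points are the deposited values and bars the deposited intervals: the bars of the antibodies were apart in 1 place, for Hdac9 in AngII 4 h.

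Ventricular cardiomyocyte markers were above 0 in all libraries for 6 of 6 genes (Myh6, Tnnt2, Tnni3, Actc1, Ryr2 and Myl2), with a summed FPKM of 4691 to 8237. The 3 atrial markers (Myl7, Myl4 and Sln) summed to 23.8 and 18.8 FPKM in the IgG and anti-EZH2 libraries of Sham, but to between 0 and 1.05 in the 4 AngII libraries, and each was at 0 in some library. Of these markers, 2 had a mean of at least 1 FPKM, and the other was at 0 in every library, Sham included. Mitochondrial genes took 31.3% of the FPKM in the anti-EZH2 library of AngII 24 h and 6.72% to 13.9% in the other 5. The 4 endothelial markers ranged from 9.65 to 23.8 FPKM, the 4 fibroblast markers from 23.7 to 46.7 the 4 leukocyte markers (Cd68 at 0 in some library) from 12 to 21.3 and the 3 markers of smooth muscle and pericytes from 11.9 to 22.1, each lowest in that same library. The 3 erythroid markers summed to between 327 and 829 FPKM, and the 2 adipocyte markers to at most 0.521 FPKM. The part of these differences in the values below was not tested.

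In Sham hearts, 9 of the 10 genes were lower with anti-EZH2 than with IgG, and Hdac4 alone was higher. Hdac1 (ratio 0.969) and Hdac7 (0.749) lay on the other side of 1 in the series table, and Hdac1 also after division by the median ratio of all genes or by the upper quartile. Of the 8 members with a mean of at least 1 FPKM, 7 were lower with anti-EZH2, against 62.5% of 8046 genes tested with the same minimum, and 4 were more than 2-fold lower with anti-EZH2, against 20.0%. Those 4 included Hdac11, which would be under the minimum without its Sham IgG value. A single member (Hdac4) was more than 2-fold higher, against 12.1%. The median ratio was 0.530 over these 8 members and 0.821 over all genes tested. No member had intervals that were apart, against 6.30% of all genes.

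Hdac4, a class IIa repressor of MEF2, had 3.84 FPKM (interval 0.405 to 7.93) with anti-EZH2 and 1.67 FPKM (0.442 to 5.44) with IgG in Sham, a ratio of 2.30. The study screened non-coding RNAs for a ratio above 2 and a minimum of 1, which was read here as FPKM in the anti-EZH2 library. Hdac4 encodes a protein and so lay outside that screen. Its values met both thresholds in Sham, as did those of 11.5% of all genes tested. Hdac8 at 4 h, with a ratio of 3.08 and 0.776 FPKM, was under that minimum. The 3 IgG values of Hdac4 were 1.67, 1.93 and 2.11 FPKM, so that the Sham anti-EZH2 library was the high one. With anti-EZH2 its level was 2.12 FPKM at 4 h and 1.51 FPKM at 24 h, where the ratio to IgG was 1.10 and 0.714. The ratio relative to Sham was 0.478 at 4 h and 0.310 at 24 h.

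Hdac6 had the lowest ratio in Sham, 0.241, with 0.253 FPKM with anti-EZH2 and 1.05 FPKM with IgG. Hdac11 followed (0.297, from 0.571 and 1.92 FPKM), then Hdac8 (0.305, from 0.363 and 1.19 FPKM), Hdac3 (0.345, from 0.752 and 2.18 FPKM), Hdac9 (0.405, from 0.332 and 0.821 FPKM) and Hdac5 (0.438, from 2.33 and 5.31 FPKM). The interval of each overlapped that of its IgG value. Hdac2, the partner of Hdac1 in co-repressor complexes, stood at 0.621 (2.15 and 3.46 FPKM).

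**Figure D2:**
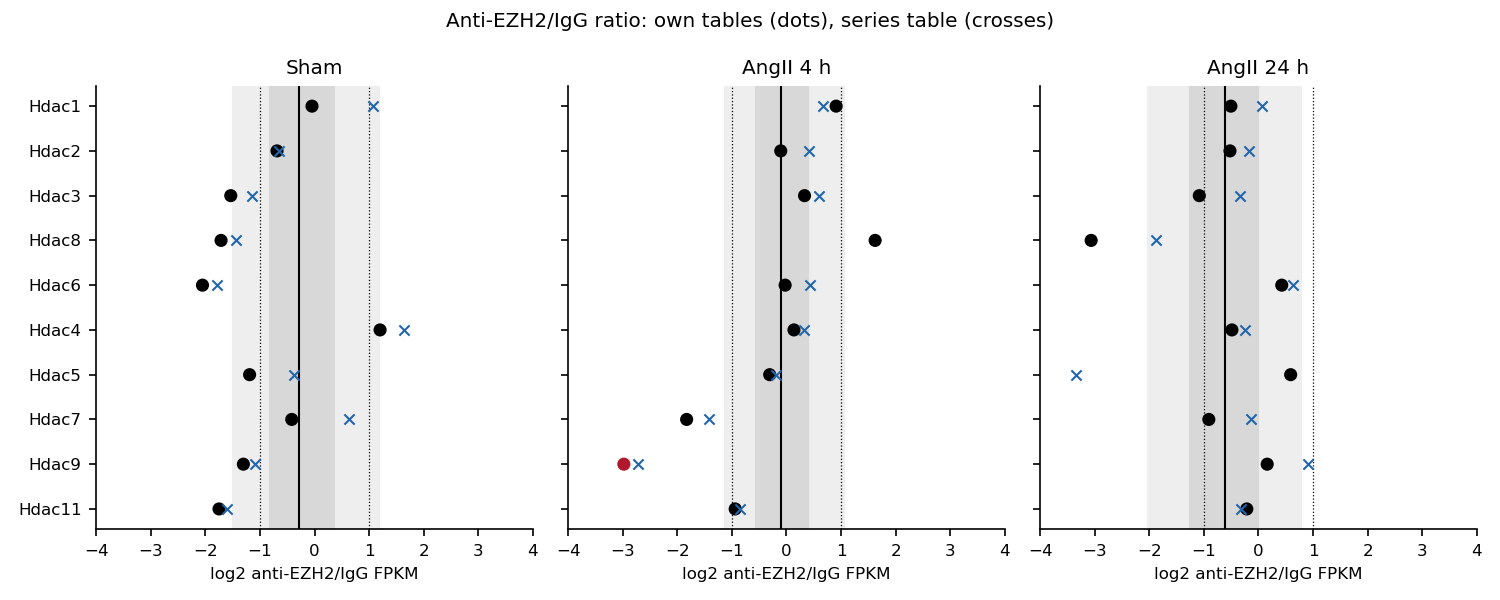
Log2 of the anti-EZH2/IgG FPKM ratio of each gene in the 3 groups, from the separate table of each library (dots; red where the intervals were apart) and from the series table (crosses; Hdac8 in AngII 4 h has none, being listed at 0 with IgG). The black line is the median of all genes tested, the dark band runs from their percentile 25 to 75, the light band from 10 to 90, and dotted lines mark 2-fold: in Sham most members lie left of the median, and Hdac5 in AngII 24 h lies on opposite sides in the 2 tables.

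At 4 h of AngII the members were spread to both sides. Of the 8 above the minimum, 0 were more than 2-fold higher with anti-EZH2 (10.9% of 8149 genes) and 1 was more than 2-fold lower (12.2%). Their median ratio was 0.956, beside 0.930 for all genes. Over all 10 members 1 (Hdac8) was higher and 2 were lower by more than 2-fold, and 2 and 2 after division by the median ratio of all genes tested. The lower ones were the class IIa genes Hdac7 and Hdac9.

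Hdac7, known for its part in blood vessel integrity, had 0.993 FPKM (0.317 to 2.11) with anti-EZH2 and 3.53 FPKM (0.894 to 6.30) with IgG, a ratio of 0.281. Its ratio was 0.749 in Sham and 0.532 at 24 h, so that it was under 1 in all 3 groups in the separate tables, though 1.55 in Sham in the series table. The 3′ end of Hdac7 overlaps Slc48a1 on the opposite strand (chr15:97792664-97844502 and chr15:97778520-97792692, GRCm38), and the libraries were stranded.

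Hdac9, a class IIa gene that is abundant in muscle, was the sole member whose intervals were apart between the antibodies in any group. The 3 IgG libraries gave 0.821, 1.17 and 0.621 FPKM (Sham, 4 h and 24 h), and the 3 anti-EZH2 libraries 0.332, 0.148 and 0.694 FPKM. The antibodies thus differed at 4 h, where the ratio was 0.127 and the intervals were apart (0.0283 to 0.255 against 0.731 to 1.59). Among genes with a mean of at least 0.1 FPKM, intervals were apart for 3.53% of 13891 at 4 h. At 24 h the ratio was 1.12. Hdac9 was listed with 1 transcription start and the other members with 4 to 18. Hdac7 at 4 h had intervals that overlapped, although it rested on more fragments (about 32 with anti-EZH2 and 74 with IgG). The part of the number of starts in the width of the intervals was not tested.

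Hdac9 is also the member for which the deposited interval is not the whole gene. The tables place it at chr12:34371503-34528889 on the minus strand with 1 transcription start, whereas GENCODE M21 gives 34047580 to 34917095 with 10 transcripts. The span is close to that of a short transcript (34371497 to 34528874, 12 exons, 4413 nt). That transcript has 588 codons, while a long transcript that starts in the same region has 25 exons and 1064 codons. The short form of the protein, known as MITR, lacks the deacetylase domain and still represses MEF2. The coding sequences of both transcripts are shown where they part (5′ to 3′, GRCm38, the 30 bases before the split in lower case and the bases after it in capitals), since the deposited interval holds the bases after the split of the short form and not those of the long form. After the split 48 coding bases remain in the short form and 1476 in the long form.
Hdac9 short form: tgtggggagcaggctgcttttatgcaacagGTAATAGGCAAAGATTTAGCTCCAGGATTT
Hdac9 long form: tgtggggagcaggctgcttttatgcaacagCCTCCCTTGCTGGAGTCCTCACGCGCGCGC

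With the length of the short transcript the 6 values lay within 0.139 of a whole read. They came to 15, 26 and 10 reads with IgG and 8, 5 and 14 reads with anti-EZH2 (Sham, 4 h and 24 h). For the ratio of reads per library the exact 95% interval was 0.0380 to 0.336 at 4 h, 0.149 to 1.02 in Sham and 0.461 to 2.81 at 24 h. These intervals cover the counting of reads in these libraries and nothing else. Exons shared with the long forms lie in the same span, so that reads from long transcripts can be counted in this value.

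**Figure D3:**
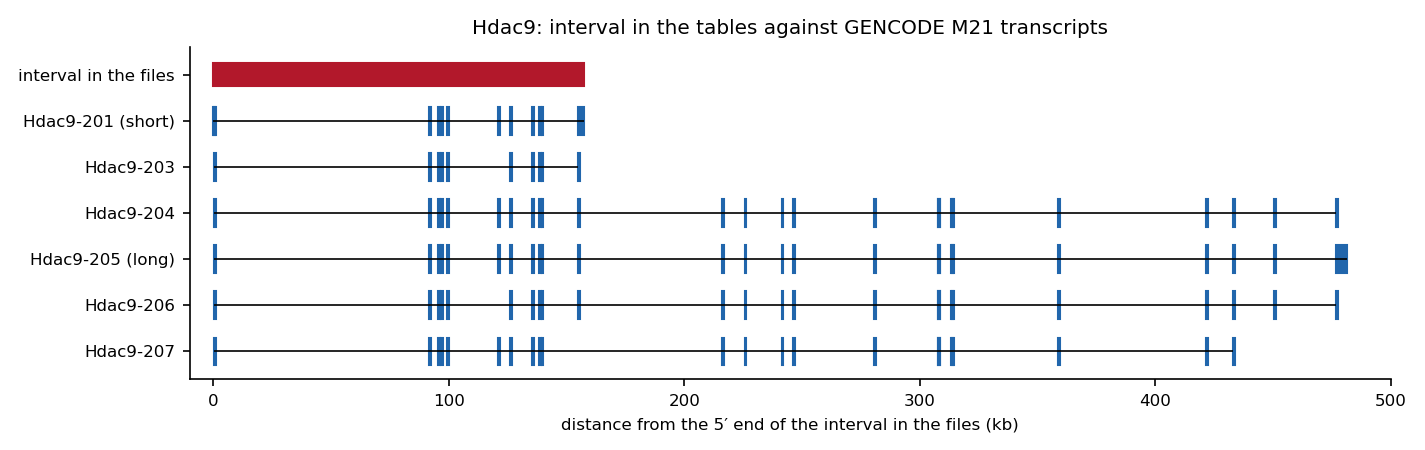
The interval given for Hdac9 in the tables (red bar, 1 row) against exons (blue, drawn at least 0.8 kb wide) of 6 of the coding GENCODE M21 transcripts, as distance in kb from the 5′ end of that interval. The bar ends with the short transcript of 12 exons, and the later exons of the long ones lie outside it.

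At 24 h of AngII the anti-EZH2 library was lower for most genes, with a median ratio of 0.652 over 7942 genes, and 33.4% of them were more than 2-fold lower. Of the 8 members 1 was more than 2-fold lower (Hdac3, 0.471, but 0.787 in the series table and 0.723 after division by the median ratio of all genes tested) and 0 were more than 2-fold higher (7.66% of all genes). Their median was 0.709. Over all 10 members 0 were higher and 2 lower by more than 2-fold (Hdac3 and Hdac8), but 2 higher and 1 lower (Hdac8) once the ratios were divided by that median. Hdac1, Hdac2, Hdac4 and Hdac11 were on the other side of 1 after that division.

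Hdac5, a class IIa gene known for its export from the nucleus under hypertrophic signals, had the highest ratio of the members at 24 h in the separate tables. It was 1.51, from 5.75 FPKM (1.43 to 12) with anti-EZH2 and 3.82 FPKM (1.95 to 10.7) with IgG. In the table of the whole series the same pair of libraries had 6.89 and 70.4 FPKM, a ratio of 0.0979. The direction of Hdac5 at 24 h therefore depended on the table. The difference lay in the IgG library, where the series value was outside the interval of the separate table. In the other 4 libraries the series values of Hdac5 were 1.22 to 1.72 FPKM.

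A microRNA gene, Mir8101, lies on the same strand within the exon of Hdac5 at its 5′ end, at chr11:102230040-102230150 in GRCm38, with Hdac5 at chr11:102194432-102230166. The separate tables gave Mir8101 as a gene of its own, at 38.2 FPKM (0 to 219) in the IgG library of AngII 24 h and at 0 in the other 5 libraries, and marked all 6 values as low data, whereas the members' values were marked OK. The series table gave no value under that name. Its mature form is shown from RefSeq, with the seed (bases 2 to 8) in capitals, as the entry that sits inside the Hdac5 exon.
mmu-miR-8101: gGCGAGCGgagccggaggagcc
Whether its reads are part of the series value of Hdac5 was not tested.

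Over all 10 members and 6 libraries, the series value lay inside the interval of the separate table for 48 of 60 values and was the lower one for 53, with a median of 0.518 times the separate value. The 12 outside were those of Hdac5 in 4 libraries, Hdac7 in 3, Hdac2 and Hdac3 in 2 each and Hdac9 in 1.

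Relative to Sham, 3 and 6 of the 8 members were past 2-fold in either direction at 4 h and 24 h in the anti-EZH2 libraries, against 1 and 1 in the IgG libraries, and this difference was not tested. Of all genes tested, 31.8% and 35.1% were past 2-fold with anti-EZH2, and 29.4% and 30.9% with IgG. In a whole ventricle, fewer cells of a type and less RNA per cell cannot be told apart. In the IgG libraries, 0 of the 8 members were more than 2-fold higher at 4 h than in Sham (17.7% of 8019 genes) and 1 was more than 2-fold lower (11.8%). This was Hdac11, at 0.854 FPKM after 1.92 FPKM (ratio 0.444). Without that Sham value Hdac11 would be under the minimum, so the minimum favoured its call. At 24 h Hdac1 alone was more than 2-fold higher (20.5% of 8008 genes) and 0 members were more than 2-fold lower (10.5%). Without its 24 h IgG value Hdac1 would be under the minimum. The median ratios of all genes were 1.16 at 4 h and 1.18 at 24 h, and those of the 8 members 1.10 and 1.08.

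In the anti-EZH2 libraries at 4 h, 2 of the 8 members were more than 2-fold higher than in Sham (21.6% of 8192 genes) and 1 was more than 2-fold lower (10.2%). All 4 class I genes were higher, Hdac3 by 6.00-fold, Hdac8 by 2.14-fold, Hdac2 by 1.92-fold and Hdac1 by 1.34-fold, although Hdac1 was lower in the series table. Of all genes tested 33.5% were lower, and the median was 1.29-fold higher. In class IIa 1 of 4 was higher (Hdac5, 1.29-fold, lower in the series table and just under the median of all genes), while Hdac4 (0.551), Hdac9 (0.446) and Hdac7 (0.440) were lower. Over the 10 members 3 were higher and 2 lower by more than 2-fold, and 2 and 3 after division by that median. The summed FPKM of class I was 3.91 in Sham and 10.3 at 4 h with anti-EZH2, and 7.50 and 8.74 with IgG. For class IIa the sums were 8.76 and 6.25 with anti-EZH2, and 10.8 and 10.3 with IgG.

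Hdac3, the catalytic subunit of the NCoR/SMRT complexes, had the largest change of level from Sham in class I. With anti-EZH2 it had 0.752 FPKM in Sham (0.0973 to 1.42), 4.51 FPKM at 4 h (3.26 to 5.76) and 1.61 FPKM at 24 h (0.527 to 2.70). With IgG it had 2.18, 3.59 and 3.42 FPKM. The 4 h library was the high one with anti-EZH2, and its interval was apart from that of Sham and from that of 24 h. Of all genes tested, 10.3% were higher at 4 h than in Sham with intervals apart. The anti-EZH2/IgG ratio of Hdac3 went from 0.345 in Sham to 1.26 at 4 h, a change of 3.65-fold, and was 0.471 at 24 h. In the series table the change to 4 h was 3.35-fold.

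**Figure D4:**
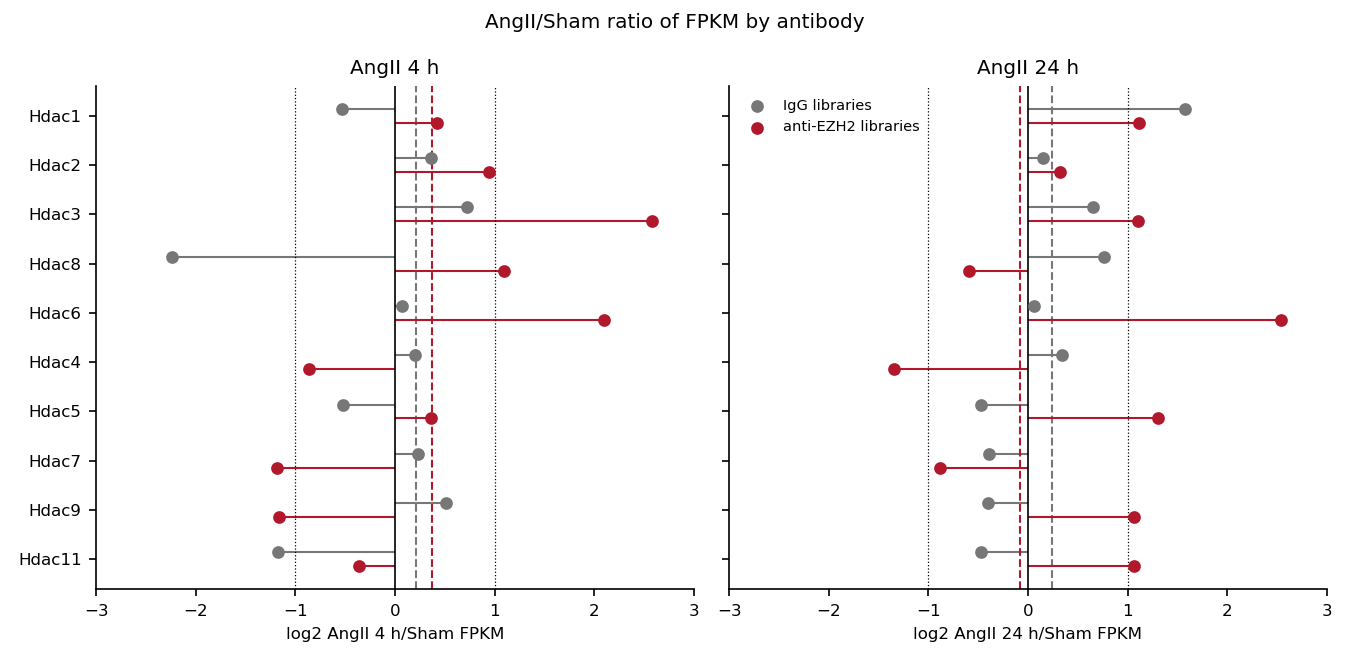
Log2 of the AngII/Sham FPKM ratio of each gene within the IgG libraries (grey) and within the anti-EZH2 libraries (red), at 4 h and at 24 h. Dashed lines are the medians of all genes tested in that antibody and dotted lines mark 2-fold: Hdac3 and Hdac6 are farthest to the right with anti-EZH2 at 4 h, and Hdac6 at 24 h, while their IgG values lie nearer to 0.

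At 24 h, 5 of the 8 members were more than 2-fold higher with anti-EZH2 than in Sham, against 13.9% of 7995 genes, and 1 was more than 2-fold lower, against 21.2%. The median ratio of the 8 members was 2.12, and that of all genes 0.944. Those higher were Hdac6 (5.82), Hdac5 (2.47), Hdac1 (2.17), Hdac3 (2.15) and Hdac11 (2.10), and Hdac4 (0.393) was the lower one. Hdac9, under the minimum, was also higher (2.09). These 6 genes came from every class, and no member had intervals that were apart (6.55% of all genes). Hdac1 (mean 1.008 FPKM) and Hdac6 (mean 1.011 FPKM) were just over the minimum. Either would be under it without its 24 h anti-EZH2 value, so the minimum favoured their calls. In the table of the whole series 5 of the 10 members were more than 2-fold higher and 1 was lower, with a median of 1.63 over all genes tested there. The share of all genes past 2-fold in that table was not counted, so these numbers have nothing to be set against. The Sham anti-EZH2 library enters both comparisons, and 5 of the 10 members had their lowest or highest value of all 6 libraries in it: Hdac2, Hdac3, Hdac5 and Hdac6 the lowest, Hdac4 the highest. How many of all genes had their lowest or highest value there was not counted. The atrial markers differed between the same libraries, with 18.8 FPKM in Sham and 0 at 24 h, and their part in these values was not tested.

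Hdac6, the tubulin deacetylase, had 1.05, 1.10 and 1.10 FPKM with IgG (Sham, 4 h and 24 h) and 0.253, 1.08 and 1.47 FPKM with anti-EZH2. The Sham anti-EZH2 value stood apart as the low one, although its interval (0 to 1.85) held the other 5. The change of its anti-EZH2/IgG ratio from Sham was 4.08-fold at 4 h and 5.58-fold at 24 h, and 4.67-fold and 5.35-fold in the series table. Among increases of the ratio at 24 h this was the highest of the members by either table. Hdac10, the other class IIb gene, is not among the members. It had 0.978, 0.0861 and 0 FPKM with IgG and 0.242, 1.24 and 0 FPKM with anti-EZH2.

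Hdac1, which pairs with Hdac2 in the NuRD, Sin3 and CoREST complexes, had 0.669, 0.462 and 2.00 FPKM with IgG and 0.648, 0.868 and 1.41 FPKM with anti-EZH2. It was highest at 24 h with both antibodies, 2.99-fold and 2.17-fold over Sham, with intervals that overlapped. The values of Hdac1 are uncertain because Gm10093, a processed pseudogene, is 99.4% identical to it over 1444 nt. That copy had 0 to 0.198 FPKM in the 6 libraries. How the authors' counting divided shared reads is not given in the sources used here.

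Hdac2 varied least, from 2.15 to 4.44 FPKM, a range of 2.06-fold. It had 3.46, 4.44 and 3.85 FPKM with IgG and 2.15, 4.12 and 2.68 FPKM with anti-EZH2. Relative to IgG it stood at 0.621, 0.930 and 0.696 with anti-EZH2 (Sham, 4 h and 24 h). In the series table its ratio at 4 h was on the other side of 1 (1.33).

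Hdac8, an X-linked class I enzyme that acts outside the large co-repressor complexes, varied most, by 8.38-fold between 0.241 and 2.02 FPKM. With IgG it had 1.19, 0.252 and 2.02 FPKM, and with anti-EZH2 0.363, 0.776 and 0.241 FPKM. The anti-EZH2 library was the higher one at 4 h (ratio 3.08) and the lower one in Sham (0.305) and at 24 h (0.119). All 6 intervals started at 0 and overlapped, and the value at 4 h with IgG would stand for about 2 fragments.

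Hdac11 had 1.92, 0.854 and 1.39 FPKM with IgG and 0.571, 0.445 and 1.20 FPKM with anti-EZH2, and was lower with anti-EZH2 in all 3 groups (0.297, 0.521 and 0.862). At 24 h it was on the other side of 1 after division by the median ratio.

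When the antibodies were compared over the 3 groups, with the group as a block and the AngII groups thus taken as repeats of Sham, no member passed the threshold. Of the 8 members fitted, 0 had an adjusted p under 0.05 by limma on log2(FPKM + 0.1), and 0 an unadjusted p under 0.05, against 2 and 615 of 8637 genes. Only 2 residual degrees of freedom were left. Hdac7 (log2 difference -0.998 ± 0.418, SE), Hdac11 (-0.87 ± 0.56) and Hdac2 (-0.42 ± 0.31) were lower with anti-EZH2 in 3 of 3 groups, beside a median of -0.32 over all genes. How many of all genes were lower in 3 of 3 groups was not counted. After division by the median ratio of all genes, Hdac2 (1.07) and Hdac11 (1.32) were over 1 at 24 h, while Hdac7 stayed under 1 in each group. The lowest adjusted p was that of Hdac7, 0.671 (limma, Benjamini-Hochberg).

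Relative to Sham, the anti-EZH2/IgG ratio was altered by more than 1.5-fold for 7 of the 8 members at 4 h, against 57.9% of 7933 genes. It was raised for 5 (33.2%) and lowered for Hdac4 and Hdac7. Of the 5 raised, Hdac1 (1.94) was at 0.758 and Hdac5 (1.84) at 1.14 in the series table. At 24 h it was altered for 4 of 8, against 63.1% of 7810 genes. It was raised for Hdac5, Hdac6 and Hdac11 (21.1%) and lowered for Hdac4. For Hdac5 the series table gave a change of 0.126 at 24 h in place of 3.43. Hdac9 was lowered at 4 h (0.313) and raised at 24 h (2.76).

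Between the AngII libraries themselves, a comparison added after the values were seen, the level of Hdac9 with anti-EZH2 was 4.67-fold higher at 24 h than at 4 h, with 14 and 5 reads (exact 95% interval of the ratio of reads 1.58 to 16.5). Intervals were apart for Hdac9 and for Hdac3, which was at 0.358 of its 4 h value, but at 0.762 in the series table and at 0.503 after division by the median of all genes tested (0.711). Among genes with a mean of at least 0.1 FPKM, intervals were apart for 8.09% of 13110. With IgG, Hdac9 was 0.530 of its 4 h value, and 2.87% of the genes with a mean of at least 1 FPKM and 0 of the 8 members had intervals apart.

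The partners of these enzymes were described from 9 lists of 85 genes, all of them in the tables and 58 with a mean of at least 1 FPKM. They were the sirtuins, which are the NAD-dependent deacetylases, the NuRD, Sin3, CoREST and NCoR/SMRT complexes, kinases of class IIa proteins, 14-3-3 proteins, transcription factors bound by class IIa proteins, and histone acetyltransferases. In Sham 6 of 57 were more than 2-fold higher (10.5%, against 12.1% of all genes) and 8 more than 2-fold lower (14%, against 20.0%) with anti-EZH2. At 4 h 9 of 58 were higher (15.5%, against 10.9%) and 5 lower (8.62%, against 12.2%). At 24 h 1 was higher (1.72%, against 7.66%) and 25 were lower (43.1%, against 33.4%, with a median ratio of all genes of 0.652). At 24 h the lower ones included 6 of 11 NuRD genes (lowest Chd3, a remodelling ATPase, 0.905 FPKM with anti-EZH2 and 4.07 FPKM with IgG), 4 of 6 14-3-3 genes (lowest Ywhaq, 1.26 and 3.20 FPKM), 4 of 6 acetyltransferases (lowest Ep300, 0.661 and 3.12 FPKM), 4 of 8 kinases (lowest Sik1, 0.437 and 1.58 FPKM), 2 of 6 class IIa-bound factors, 2 of 5 CoREST genes, 2 of 5 NCoR/SMRT genes, 1 of 6 Sin3 genes and 0 of 5 sirtuins.

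In Sham the lowest ratios of the lists were those of Sirt7, a nucleolar sirtuin (0.0571 FPKM with anti-EZH2 and 1.03 FPKM with IgG), and Hat1, which acetylates newly made histone H4 (0.255 and 2.61 FPKM). The highest was that of Sik2, a kinase of class IIa proteins (1.08 and 0.268 FPKM). Of the 5 NCoR/SMRT genes, the complexes that hold Hdac3, 0 were past 2-fold between the antibodies in Sham or at 4 h.

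With anti-EZH2, 13 of 58 listed genes were more than 2-fold higher at 4 h than in Sham (22.4%, against 21.6% of all genes) and 1 was lower (1.72%, against 10.2%). At 24 h 7 were higher (12.1%, against 13.9%) and 9 lower (15.5%, against 21.2%). In the IgG libraries 9 of 57 were higher (15.8%, against 17.7%) and 3 lower (5.26%, against 11.8%) at 4 h, and 16 higher (28.1%, against 20.5%) and 1 lower (1.75%, against 10.5%) at 24 h. The highest with anti-EZH2 at 4 h were Sirt7 (2.23 FPKM after 0.0571) and Chd3 (3.94 FPKM after 0.360). The Sham value of Sirt7, near 0 and from 1 library, enters both this rise and its low ratio in Sham. Among the transcription factors bound by class IIa proteins, Mef2c, which directs the muscle gene programme, had the highest anti-EZH2/IgG ratio at 4 h, from 7.00 and 3.28 FPKM.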

How the data were processed

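RIP-seq was performed by the authors on left ventricles of 3 groups with anti-EZH2 and IgG, with 2 RIP products mixed into each of 6 libraries. They prepared stranded libraries, mapped reads to mm10 (GRCm38) with TopHat2 and deposited FPKM values in a separate table of each library, with an interval, and in a table of the whole series. The program that calculated FPKM is not given in the sources used here, although the per-library tables are laid out as Cufflinks gene tracking files are. No column was left unmapped.

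The separate tables gave the values reported here. Values below 0.001 FPKM (787) were set to 0. Ratios were FPKM of one library over another without a pseudocount, for genes with a mean of at least 1 FPKM over the 6 libraries and above 0 in both. Calls were a ratio beyond 2-fold, as the study set it, a change of the ratio beyond 1.5-fold, or intervals that did not overlap. With 1 library in each group and antibody no test was made within a group. The antibodies were also compared over the 3 groups with limma 3.58.1 (R 4.3.3) on log2(FPKM + 0.1), with the group as a block and Benjamini-Hochberg adjustment. Depth was estimated from the spacing of low FPKM values of genes with 1 transcript of at least 400 nt, taking a mean fragment of 200 nt. Of these values 60.0% to 65.6% lay within 0.1 of a whole read. Exact binomial (Clopper-Pearson) 95% intervals were used for the reads of Hdac9. Groups followed the labels. The members, the lists and the rules were chosen with earlier results of these data known: all members were named, and of 9 pathway lists the highest and the lowest gene of a comparison. Gene positions and transcripts came from the files and GENCODE M21, the microRNA sequence from RefSeq (GRCm38.p6), and identity from BLAST 2.17.0. Calculations were run in Python 3.11.15 with pandas 2.3.3, numpy 2.4.6 and scipy 1.17.1, and plots were drawn with matplotlib 3.10.9. The 2-fold calls and the estimate of depth were first tested on simulated FPKM. The limma fit was also run on simulated log2 values. Alternatives were the series table, pseudocounts of 0.1 and 1 FPKM, division by the median ratio or by the upper quartile, folds of 1.5 and 4, intervals not overlapping, a minimum mean of 0.1 FPKM and no minimum. This fit and the comparison of AngII 24 h with AngII 4 h were added after seeing the data.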

Additional observations from a re-analysis of the deposited data

Results flagged for a closer look

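Among the 10 genes, 2 were past 2-fold in opposite directions in a pair of comparisons. How many of all genes met this rule was not counted, so the number cannot be set against a share. The difference itself was not tested in any of these cases, since each group had 1 library. The anti-EZH2/IgG ratio of Hdac8 was 0.305 in Sham and 3.08 at 4 h, a 10.1-fold change, and at 24 h it was 0.119, which is 0.0387 of its 4 h value. In the same 4 libraries, the level of Hdac8 at 4 h relative to Sham was 0.212 with IgG and 2.14 with anti-EZH2, which gives the same quotient of 10.1. Its intervals overlapped in all of these, and in the table of the whole series it was listed at 0 with IgG at 4 h. The level of Hdac9 with anti-EZH2 relative to Sham was 0.446 at 4 h and 2.09 at 24 h, a 4.67-fold difference between the AngII libraries, whose intervals were apart. Groups of 1 library allowed no search for a library that stood far from others of its group.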

How the results depend on the processing

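With 1 library for each group and antibody no library could be left out, and no count has an error between hearts. No paired analysis was possible within a group, because its ratios rest on 1 library for each antibody, with 1 replicate number. The fit over the 3 groups with the group as a block, added after seeing the data, left 0 of 8 members at an adjusted p under 0.05 (limma). The levels were low, so that counts of a few genes shifted with small changes: of 100 alternative counts of members called, 47 stayed within 1.5 times the reported count. No ratio called past 2-fold turned to the other side of 1 under another setting. A pseudocount cannot move a ratio across 1. Ratios within 2-fold did change side, as the anti-EZH2/IgG ratios of Hdac1, Hdac2, Hdac4 and Hdac11 at 24 h after division by the median. Of 447 ratios recalculated, called or not, 5 left the bounds set by their intervals. For Hdac5 these were 3 in the series table (0.0979 at 24 h with anti-EZH2 over IgG, 41.0 for IgG at 24 h over Sham and 51.0 over 4 h). For Hdac9 they were 2 with a pseudocount of 1 FPKM (0.529 at 4 h, and 1.47 for anti-EZH2 at 24 h over 4 h). The causes of the following shifts were not tested, beyond fewer or more members passing the minimum.

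Counts past 2-fold are given next. For anti-EZH2 over IgG in Sham (reported 5) the count was 2 in the series table, where 4 members passed the minimum, 0 with a pseudocount of 1 FPKM, 1 at 4-fold and 0 by intervals apart. For the ratio at 4 h (reported 1) it was 0 in the series table, at 4-fold and by intervals apart, 2 after division by the median or by the upper quartile, and 3 at 1.5-fold, with a minimum of 0.1 FPKM and with none. For the ratio at 24 h (reported 1) it was 0 with a pseudocount of 1 FPKM, at 4-fold and by intervals apart, 2 after division by the median or upper quartile and with either lower minimum, and 3 at 1.5-fold. For IgG at 4 h over Sham (reported 1) it was 0 in the series table, with a pseudocount of 1 FPKM, at 4-fold and by intervals apart, and 2 at 1.5-fold and with either lower minimum. For IgG at 24 h over Sham (reported 1) it was 0 with a pseudocount of 1 FPKM, at 4-fold and by intervals apart, and 2 at 1.5-fold. For anti-EZH2 at 4 h over Sham (reported 3) it was 1 with a pseudocount of 1 FPKM and by intervals apart, and 5 at 1.5-fold and with either lower minimum. For anti-EZH2 at 24 h over Sham (reported 6) it was 3 in the series table, 1 with a pseudocount of 1 FPKM and at 4-fold, and 0 by intervals apart. For 24 h over 4 h with IgG (1) it was 3 at 1.5-fold, 0 by intervals apart and 2 with either lower minimum. For 24 h over 4 h with anti-EZH2 (2) it was 1 in the series table, with a pseudocount of 1 FPKM and by intervals apart, 4 after division by the upper quartile and with either lower minimum, 5 at 1.5-fold and 0 at 4-fold. The count of ratios altered at 4 h (7) was 3 in the series table.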
